A study of Mus musculus with 7 samples.

Results

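Cells labelled pericytes, a name for the mural cells that wrap capillaries, were compared with fibroblasts, the connective-tissue mesenchyme, within the same mouse mammary glands. The members were chosen by the cell type annotation deposited with the counts, Pericyte against Fibroblast. This gave 2342 of 13684 cells, of which 349 were labelled pericytes and 1993 fibroblasts. The cells came from 7 nulliparous female mice of mixed FVB, 129 and C57BL/6J background, taken at diestrus, 3 of them young (3 to 4 months) and 4 aged (13 to 14 months). The number 4 glands were dissociated after lymph node removal, and each mouse gave 1 droplet library of unique molecular identifier (UMI) counts. Young A, B and C held 121, 71 and 39 pericytes beside 581, 184 and 1034 fibroblasts. Aged A, B, C and D held 24, 46, 28 and 20 pericytes beside 121, 41, 15 and 17 fibroblasts. The 7 libraries held between 6652599 and 16999625 UMIs over all cell types, and 101 barcodes occurred in more than 1 library, 25 of the pericytes and fibroblasts among them.

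Pericytes and fibroblasts are both mesenchymal cells and share many surface receptors. Pericytes sit inside the basement membrane of small vessels, where endothelial PDGF-BB recruits them through PDGFRB, and Notch signals from the endothelium keep their mural programme through NOTCH3. They adjust vessel calibre with smooth muscle actin and myosin, under G protein-coupled receptors, RGS proteins and potassium channels. Fibroblasts lie in the interstitium, are marked by PDGFRA, and lay down fibrillar collagens, proteoglycans and elastic fibre components.

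The labels were first checked against marker genes. A UMI of Rgs5, Des or Notch3, the genes by which the study named pericytes, was found in 284 of 349 labelled pericytes (81.4%), in 61 fibroblasts (3.06%) and in 221 of 1819 vascular endothelial cells (12.2%). Rgs5 alone was seen in 63.6% of pericytes, 1.15% of fibroblasts and 10.6% of vascular endothelial cells, at median depths of 5065, 4414 and 4907 UMIs per cell. Pdgfra was seen in 1.72% of pericytes against 49.4% of fibroblasts. Since Rgs5, Des and Notch3 were used for naming, these shares describe the label and do not test it. The labelled pericytes also carried endothelial RNA. Only 51 of 349 pericytes (14.6%, 95% Wilson interval 11.3 to 18.7, counting error only) had no UMI of the endothelial genes Pecam1, Cdh5, Eng, Cldn5 and Egfl7, against 1552 fibroblasts (77.9%) and 0 of 1819 vascular endothelial cells, which allows a share of up to 0.165%. Mural and endothelial UMIs occurred together in 234 pericytes (67.0%), and 64 pericytes had endothelial UMIs without a mural one. Scrublet called 2 of the pericytes and 9 of the fibroblasts doublets, and 0.533% of all cells. The source of the endothelial RNA was not tested.

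The share of pericytes without an endothelial UMI was 0.826, 4.22 and 0% in Young A, B and C, the last being 0 of 39 cells, which allows a share of up to 7.69%. It was 54.2, 45.6, 21.4 and 35% in Aged A, B, C and D. All 4 aged mice thus lay above all 3 young mice, with means of 1.68% ± 2.24 (SD, n = 3) and 39.1% ± 14.1 (SD, n = 4). The two-sided exact permutation p was 0.0571, where 35 divisions allow no value below 0.0286, and the Benjamini-Hochberg value over 6 shares compared between ages was 0.0686. The shift was not particular to pericytes. In fibroblasts the share was 69.5 to 82.1% in young and 82.35 to 90.2% in aged mice. Vascular endothelial cells had a median of 19 to 23 UMIs of these 5 genes in young and 10 to 13 in aged mice. Where given below, values in vascular endothelial cells of the same mice and in the fit on pericytes without endothelial UMIs, which held 5 mice, 1 of them young, stand beside the result. The young mouse was Young B, with 3 such pericytes. Without endothelial UMIs here means without those 5 genes, and not free of endothelial RNA. Summed over 17 vascular endothelial markers, such aged pericytes still held 2657 to 4117 CPM, against 177 to 388 in aged fibroblasts.

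**Figure D1:**
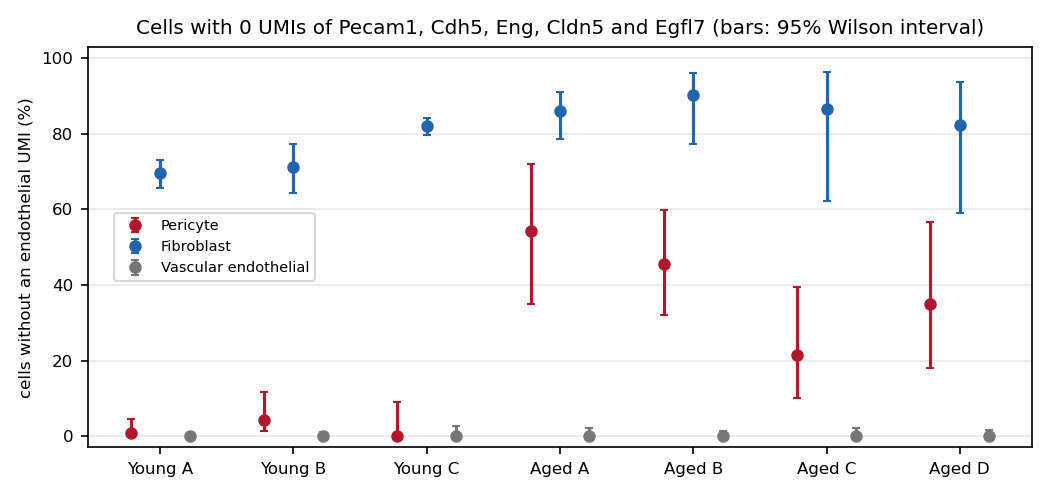
Percent of cells (y axis) without a UMI of the 5 endothelial genes in each mouse (x axis), for pericytes, fibroblasts and vascular endothelial cells; bars are 95% Wilson intervals. Pericytes of the young mice sit at 0 to 4.22% and those of the aged mice at 21.4 to 54.2%.

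The smooth muscle contractile genes include the actin and myosin light chain genes whose promoters hold CArG boxes, the sites that serum response factor binds. The letters are CC, 6 of A or T, and GG, which read alike on both strands. Promoters were the RefSeq windows of GRCm38.p6 from 250 bases before to 50 after each start, matched for 16 of the 20 listed contractile genes. The strict letters occurred in 2 of their 19 promoters (10.5%) and in 535 of 32851 promoters overall (1.63%). With 1 of the central letters G or C, a looser pattern chosen after the promoters were seen, the counts were 3 of 19 (15.8%) and 9.98%. Over the promoters of all genes higher in pericytes the strict share was 1.98%, and over those higher in fibroblasts 2.45%. The matched sites are shown because Acta2, Myl9 and Myl6 are among the contractile genes described below. Capitals mark the CArG letters, and each site is read 5′ to 3′ on the gene's strand.
Myl9, chr2:156775293-156775322, plus strand, strict: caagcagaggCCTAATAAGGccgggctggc
Myl9, chr2:156775355-156775384, plus strand, 1 letter off: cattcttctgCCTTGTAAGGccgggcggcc
Acta2, chr19:34255438-34255467, minus strand, 1 letter off: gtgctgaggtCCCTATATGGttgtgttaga
Acta2, chr19:34255388-34255417, minus strand, 1 letter off: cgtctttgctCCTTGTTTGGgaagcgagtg
Myl6, chr10:128493040-128493069, minus strand, strict: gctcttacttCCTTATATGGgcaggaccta
The Myl9 sites begin 161 and 99 bases before the start, the Acta2 sites 84 and 34 bases before it, and the Myl6 site 50 bases before it, counted from the first CArG letter to the RefSeq start. The longer GENCODE genes of Acta2 and Myl6 begin further upstream and span their sites. The RBPJ letters TGGGAA, the core of Notch-responsive sites, occurred on either strand in 26.3% of the contractile promoters and 25.6% of all promoters. E boxes (CANNTG other than CACGTG) occurred in 89.5 and 69.8%. These are matches of letters and not evidence of binding.

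The UMIs of each type were added up within a mouse, and the pairs of sums were compared by the quasi-likelihood test of edgeR. Calls required an adjusted p (Benjamini-Hochberg) under 0.05 together with a 2-fold difference. Of 3985 genes tested, 680 (17.1%) were higher in pericytes and 679 (17.0%) higher in fibroblasts. The median log2 difference over all tested genes was -0.07. The types had been defined on these same counts, so the p-values describe how regular a difference was over the 7 mice and are no independent evidence for it. Set against vascular endothelial cells, 484 of 7882 tested genes (6.14%) were higher in pericytes and 201 (2.55%) lower. In pericytes without endothelial UMIs, 314 of 1749 tested genes (18.0%) were higher than in fibroblasts and 366 (20.9%) lower. Among the 680 genes, 241 could also be tested there, where 187 (77.6%) were called and 7 had the opposite sign. Among the 679 genes, 340 could be tested there, with 276 (81.2%) called and 8 of opposite sign. Levels below are CPM, a gene's UMIs scaled to a common total of all UMIs of the cell type in that mouse, and are not scaled for transcript length, so they compare a gene between cells and not genes with each other. Differences are log2 of pericytes over fibroblasts with SE.

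Mural identity genes were higher in pericytes for 14 of 17 tested members of 20, with 1 higher in fibroblasts and a median log2 difference of 4.18. Against vascular endothelial cells 19 of 20 were higher. Rgs5 (chr1:169655501-169695813, GRCm38), a regulator of G protein signalling that marks pericytes, ranged from 345 to 1340 CPM over the 7 mice with a median of 841, against 0 to 54.9 with a median of 2.43 in fibroblasts and a median of 57.0 in vascular endothelial cells. Every pericyte value lay above every fibroblast value, and the difference was 7.37 ± 0.47 (adjusted p = 5.1e-09). Notch3 (chr17:32120820-32166852) was at 85.8 to 192 CPM, median 122, against 0 to 6.07, a difference of 5.64 ± 0.38 (adjusted p = 9.8e-09). Gja4, the gap junction protein connexin 37, was at 130 to 267 CPM in pericytes and 0 to 18.3 in fibroblasts, a difference of 7.68 ± 0.46. Gm13889 was at 1651 to 4111 against 4.25 to 100.6 CPM, or 7.06 ± 0.33. Higd1b, Ndufa4l2 and Cox4i2, which encode proteins associated with mitochondrial electron transport, were higher by 6.21 ± 0.39, 4.18 ± 0.23 and 3.57 ± 0.29, while the common isoform gene Cox4i1 had a difference of -0.05 ± 0.14 (adjusted p = 0.8). Within vessels these 3 genes were also higher in pericytes than in vascular endothelial cells, by 3.68, 4.48 and 3.25 on the log2 scale. Anpep, an aminopeptidase also listed as a mural marker, was the member higher in fibroblasts (-1.96 ± 0.39, 5 of 7 mice).

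**Figure D2:**
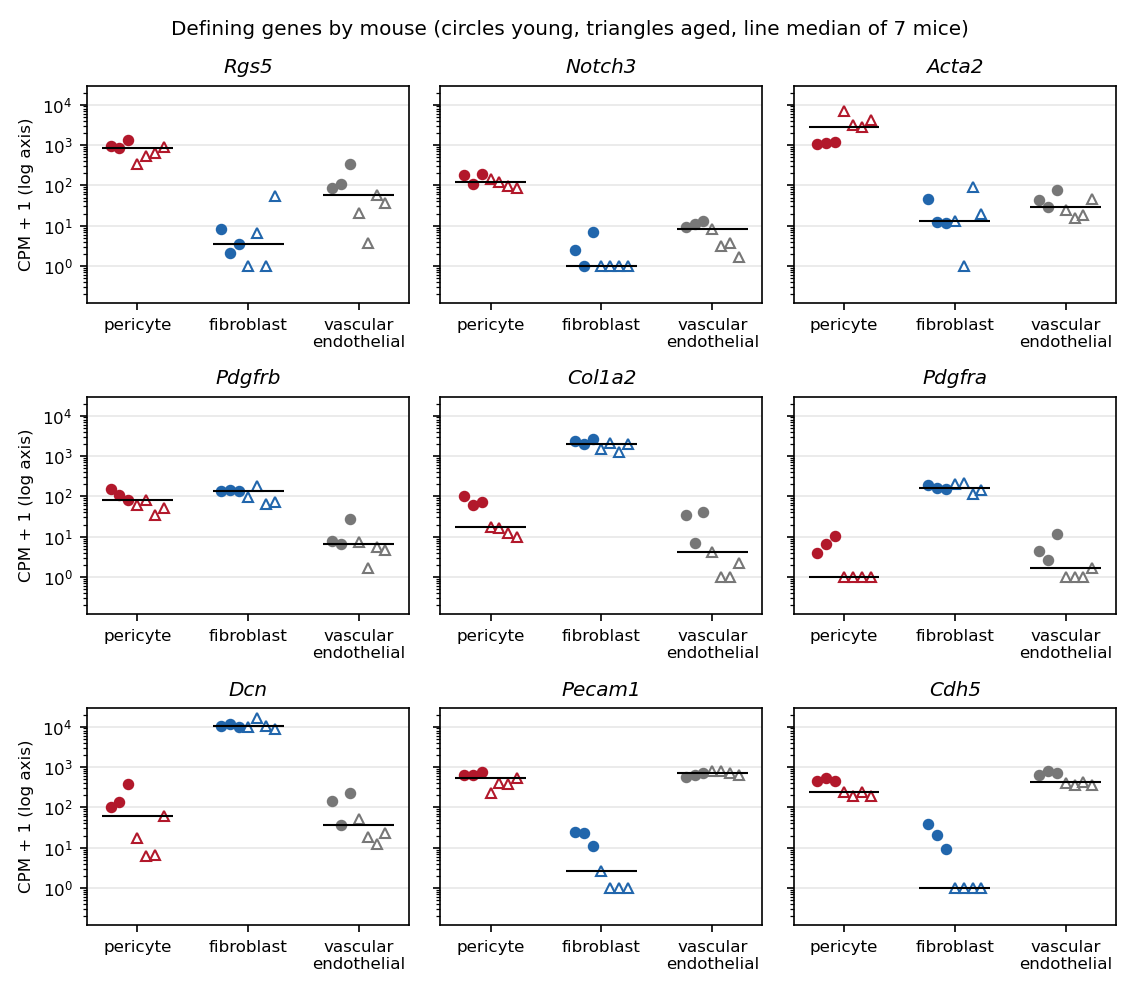
CPM plus 1 on a log axis for 9 defining genes in pericytes, fibroblasts and vascular endothelial cells, 1 point per mouse (circles young, triangles aged) with the median of 7 mice as a line. Rgs5, Notch3 and Acta2 sit highest in pericytes, Col1a2, Pdgfra and Dcn in fibroblasts, while Pdgfrb overlaps between both, and Pecam1 and Cdh5 in pericytes lie closer to vascular endothelial than to fibroblast levels.

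The PDGF receptors separated the types unequally. Pdgfra, the receptor that marks fibroblasts, was at 0 to 9.15 CPM in pericytes with a median of 0, and at 114 to 213 with a median of 162 in fibroblasts (-5.87 ± 0.36, adjusted p = 3.1e-09). Pdgfrb, the receptor through which pericytes are recruited, was at 33.9 to 149 CPM, median 79.5, in pericytes and 63.3 to 178, median 135, in fibroblasts. The fitted difference, on sums scaled by TMM factors, was -0.73 ± 0.20 (adjusted p = 0.0054), short of the 2-fold minimum. The CPM ranges overlapped, and in Young A the pericyte CPM was above that of fibroblasts (149 against 135). Against vascular endothelial cells Pdgfrb was higher by 3.53 ± 0.39 (adjusted p = 1.5e-05). Pdgfa, a ligand of the receptor PDGFRA, was at 76.8 to 286 CPM in pericytes and 0 to 9.14 in fibroblasts, a difference of 5.45 ± 0.27, with 1.98 ± 0.24 against vascular endothelial cells. The listed ligand Pdgfb did not pass the filter on low counts, with 58 UMIs in pericytes and 8 in fibroblasts.

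Contractile genes were higher in pericytes for 15 of the 16 tested members of 20, with a median log2 difference of 5.12, and 17 of 19 were higher than in vascular endothelial cells. Acta2 (chr19:34241090-34255590), smooth muscle actin, ranged from 1050 to 6806 CPM with a median of 2838 in pericytes and from 0 to 88.6 with a median of 12.1 in fibroblasts. The groups did not overlap, and the difference was 6.37 ± 0.46 (adjusted p = 2e-08). Myl9 (chr2:156775420-156781658), the regulatory myosin light chain, was at 634 to 4422 against 12.7 to 86.3 CPM (4.32 ± 0.39). Myh11, smooth muscle myosin heavy chain, was at 119 to 716 against 0 to 12.7 CPM (6.58 ± 0.30), and Mylk, the kinase that phosphorylates the light chain, at 204 to 691 against 0 to 12.7 CPM (5.47 ± 0.24). Des, the intermediate filament desmin, was at 142 to 649 against 0 to 12.7 CPM (6.93 ± 0.33). Tagln and Tpm2, which bind actin filaments, differed by 6.14 ± 0.48 and 4.49 ± 0.37. Myl6, a light chain used by non-muscle myosin too, differed by 1.15 ± 0.22. Lmod1, which nucleates actin filaments in smooth muscle, had 195 UMIs in pericytes and 3 in fibroblasts, a 334-fold ratio of summed counts (95% exact counting interval 112 to 1632). Pln, the calcium pump regulator phospholamban, had 62 UMIs in pericytes and 0 in fibroblasts, at least 106-fold higher against a floor of 3 counts over the group. Its pericyte level was 6.03 to 18.3 CPM in young and 37.1 to 244 in aged mice, highest in Aged A. Cald1 was the tested member not called (0.43 ± 0.15, adjusted p = 0.024). In pericytes without endothelial UMIs all 16 tested contractile genes were higher than in fibroblasts, with a median difference of 6.88. In these sums, more cells with a transcript and more transcript per cell cannot be told apart. Shares of cells with a UMI did differ. With each cell thinned to 2000 UMIs, Acta2 was seen in 54.4% of pericytes and 2.21% of fibroblasts, and Myl9 in 52.7 and 11.2%.

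Genes for vasoactive receptors, channels and RGS proteins were higher in pericytes for 13 of 15 tested members of 28, with a median of 2.73, and 20 of 24 were higher than in vascular endothelial cells. Rgs4 was at 147 to 472 CPM in pericytes and 0 to 2.25 in fibroblasts (7.14 ± 0.33, adjusted p = 5.2e-10). Avpr1a, the vasopressin receptor, was at 18.3 to 154 against 0 to 9.14 CPM (4.13 ± 0.45), and was nearly undetected in vascular endothelial cells, with 5 UMIs in all. Ednrb, an endothelin receptor, was at 34.3 to 270 against 0 to 9.14 CPM (5.57 ± 0.42), and at 7.68 to 96.2 in vascular endothelial cells. The nitric oxide receptor subunits Gucy1a3 and Gucy1b3 differed by 3.62 ± 0.34 and 2.73 ± 0.41, and Kcnj8, the pore of the vascular ATP-sensitive potassium channel, by 2.11 ± 0.37. Agtr1a, the angiotensin receptor, was at 8.58 to 70.8 CPM in pericytes and 11.5 to 51.8 in fibroblasts, and the ranges overlapped with a difference of -0.01 ± 0.26 (adjusted p = 0.98). It was higher than in vascular endothelial cells by 3.00 ± 0.38.

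Notch ligands, receptors and targets were higher in pericytes for 9 of 11 tested members of 18, with a median of 4.06, but for only 4 of 17 against vascular endothelial cells, where the median was 0.13. Those 4 were Notch3, the Notch target Heyl, Nrip2 and the receptor Notch2. Nrip2, a nuclear receptor-interacting protein, was at 34.0 to 286 CPM in pericytes and 0 to 3.45 in fibroblasts (5.77 ± 0.36), with 6.47 ± 0.34 against vascular endothelial cells. Heyl was at 15.9 to 60.0 against 0 to 27.4 CPM (2.93 ± 0.54), with 3.74 ± 0.54 against vascular endothelial cells. The ligand Dll4, an endothelial tip cell gene, differed by 5.33 ± 0.50 from fibroblasts and by -0.29 ± 0.22 from vascular endothelial cells (adjusted p = 0.45). Notch1 behaved similarly, with 2.84 ± 0.31 and -0.08 ± 0.20, as did Hey1 with 4.06 ± 0.36 and 0.16 ± 0.17. Nrarp, a Notch feedback inhibitor, differed by 4.88 ± 0.32 from fibroblasts and by 5.75 in pericytes without endothelial UMIs. Hes1 was not called (-0.22 ± 0.19, adjusted p = 0.35), and Notch2 was higher in fibroblasts (-1.61 ± 0.42).

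**Figure D3:**
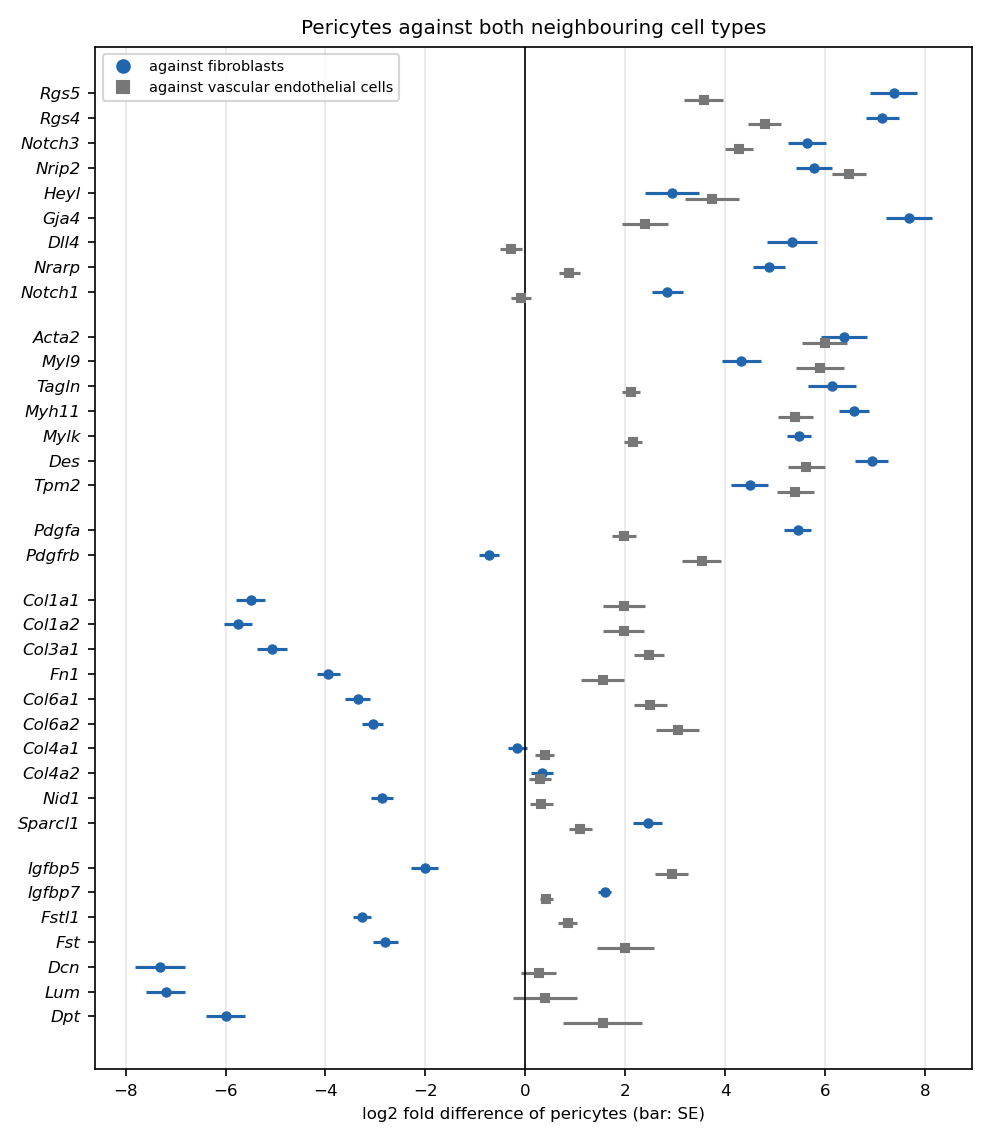
Fitted log2 difference of pericytes (x axis, bars are SE) from fibroblasts (circles) and from vascular endothelial cells (squares) of the same 7 mice, for named genes (y axis). Notch3, Nrip2, Heyl and the contractile genes lie above 0 against both, Dll4 and Notch1 lie above 0 against fibroblasts and near 0 against vascular endothelial cells, and Col1a1, Col1a2 and Col3a1 lie below 0 against fibroblasts and above it against vascular endothelial cells.

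Vascular endothelial markers were part of the difference as well. Of 17, 16 were higher in pericytes than in fibroblasts, while against vascular endothelial cells 0 were higher and 6 lower. Pecam1 was at 227 to 732 CPM in pericytes, 0 to 23.6 in fibroblasts and 556 to 794 in vascular endothelial cells. Summed over the list, the markers reached 8162 to 22150 CPM in pericytes, 177 to 2828 in fibroblasts and 19070 to 55150 in vascular endothelial cells. For some other genes present in vascular endothelial cells, values against them or without endothelial UMIs are given beside those against fibroblasts. Epas1, which encodes the hypoxia-inducible factor HIF-2 alpha, differed by 4.41 ± 0.23 from fibroblasts and by 0.24 ± 0.15 from vascular endothelial cells, and still by 4.35 (adjusted p = 1.4e-06) in pericytes without endothelial UMIs. Clu, the complement inhibitor clusterin, differed by 2.03 ± 0.27 from fibroblasts but by 0.65 (adjusted p = 0.39) in pericytes without endothelial UMIs. Tgfb1 went from 2.23 ± 0.22 to 0.85 (adjusted p = 0.28), and Id1, a BMP target, from 2.54 ± 0.27 to 0.59 (adjusted p = 0.28). For myoepithelial, luminal, leukocyte and the Schwann and adipocyte markers, 3 of 7, 8 of 10, 1 of 9 and 0 of 9 were tested. Of these 12 genes Krt19 alone was called, lower in pericytes (-1.32 ± 0.24).

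Fibroblast identity genes were higher in fibroblasts for 19 of 20, with a median log2 difference of -6.03. Col1a2 (chr6:4504814-4541544), a chain of type I collagen, was at 8.58 to 102 CPM with a median of 16.8 in pericytes and 1279 to 2583 with a median of 2011 in fibroblasts. The difference was -5.76 ± 0.28 (adjusted p = 5.2e-10), and the levels did not overlap. Col1a1 and Col3a1 differed by -5.50 ± 0.29 and -5.07 ± 0.30, the fibronectin gene Fn1 by -3.94 ± 0.23 and the fibroblast activation protein gene Fap by -3.04 ± 0.38. Dcn (chr10:97479609-97518143), the collagen-binding proteoglycan decorin, was at 5.30 to 389 CPM with a median of 60.0 in pericytes and 8676 to 16510 with a median of 10350 in fibroblasts (-7.31 ± 0.50). In vascular endothelial cells it was at 11.6 to 221 CPM, 0.27 ± 0.35 from pericytes on the log2 scale (adjusted p = 0.7). Col1a1, Col1a2 and Col3a1 were higher in pericytes than in vascular endothelial cells, by 1.97 ± 0.42, 1.97 ± 0.41 and 2.47 ± 0.30.

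Matrix genes followed the same side. Fibrillar collagens and their processing enzymes were higher in fibroblasts for 15 of 16 tested members of 22, with a median of -3.59 and P4hb as the member not called. Small leucine-rich proteoglycans and elastic fibre genes were higher in fibroblasts for 15 of 19 tested of 22 (median -4.32), and none was higher in pericytes. In the fit on pericytes without endothelial UMIs 13 of 18 tested were higher in fibroblasts and 2 in pericytes, among the latter Aspn, asporin (2.93 ± 0.43, adjusted p = 7.3e-05). Lum, lumican, was at 0 to 27.4 CPM in pericytes against 861 to 2531 in fibroblasts (-7.20 ± 0.39). Hyaluronan and matricellular genes were higher in fibroblasts for 16 of 18 tested of 26 (median -3.59), among them the hyaluronan synthase gene Has1 (-6.74 ± 0.35) and the hyaluronan receptor gene Cd44 (-1.98 ± 0.27). Pcolce2, an enhancer of procollagen processing, differed by -7.82 ± 0.38. Of 22 tested matrix protease and inhibitor genes of 25, 15 were higher in fibroblasts and 6 in pericytes. Those in pericytes were Adamts1, Adamts4, Adamts9, Serpine2, Timp3 and Timp4. Adamts9 was at 159 to 597 CPM in pericytes, 0 to 19.8 in fibroblasts and 175 to 502 in vascular endothelial cells, which overlapped with pericytes. Serpine2, an inhibitor of thrombin and plasminogen activators, was at 189 to 362 CPM in pericytes, 0 to 49.8 in fibroblasts and 4.19 to 11.6 in vascular endothelial cells (2.52 ± 0.23 and 4.56 ± 0.22). Mmp3, stromelysin, had 2465 UMIs in fibroblasts and 2 in pericytes, 240-fold apart (66.4 to 1984).

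Basement membrane genes divided. Of 14 tested members of 21, 2 were higher in pericytes, 5 in fibroblasts and 7 were not called, with a median of -0.42. Col4a1 and Col4a2, the main chains of type IV collagen, differed by -0.16 ± 0.19 and 0.34 ± 0.22 (adjusted p = 0.49 and 0.21). Col4a1 was at 106 to 357 CPM in pericytes and 119 to 306 in fibroblasts. The nidogen gene Nid1 (-2.86 ± 0.22) and the laminin chain genes Lamc1 (-2.17 ± 0.25) and Lamb1 (-1.22 ± 0.29) were higher in fibroblasts. Lama5, another laminin chain, was at 25.3 to 60.0 CPM in pericytes and 0 to 7.08 in fibroblasts (3.32 ± 0.52). Sparcl1 was at 673 to 2451 CPM against 64.0 to 472 (2.45 ± 0.29), and at 388 to 759 in vascular endothelial cells. Its relative Sparc, a collagen-binding matricellular protein, was not called (-0.38 ± 0.13, adjusted p = 0.022). Other collagens were higher in fibroblasts for 6 of 11 tested of 17, including Col6a1 (-3.35 ± 0.25) and Col6a2 (-3.05 ± 0.21). Col13a1, a transmembrane collagen, was the single member higher in pericytes (1.69 ± 0.43, 6 of 7 mice).

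**Figure D4:**
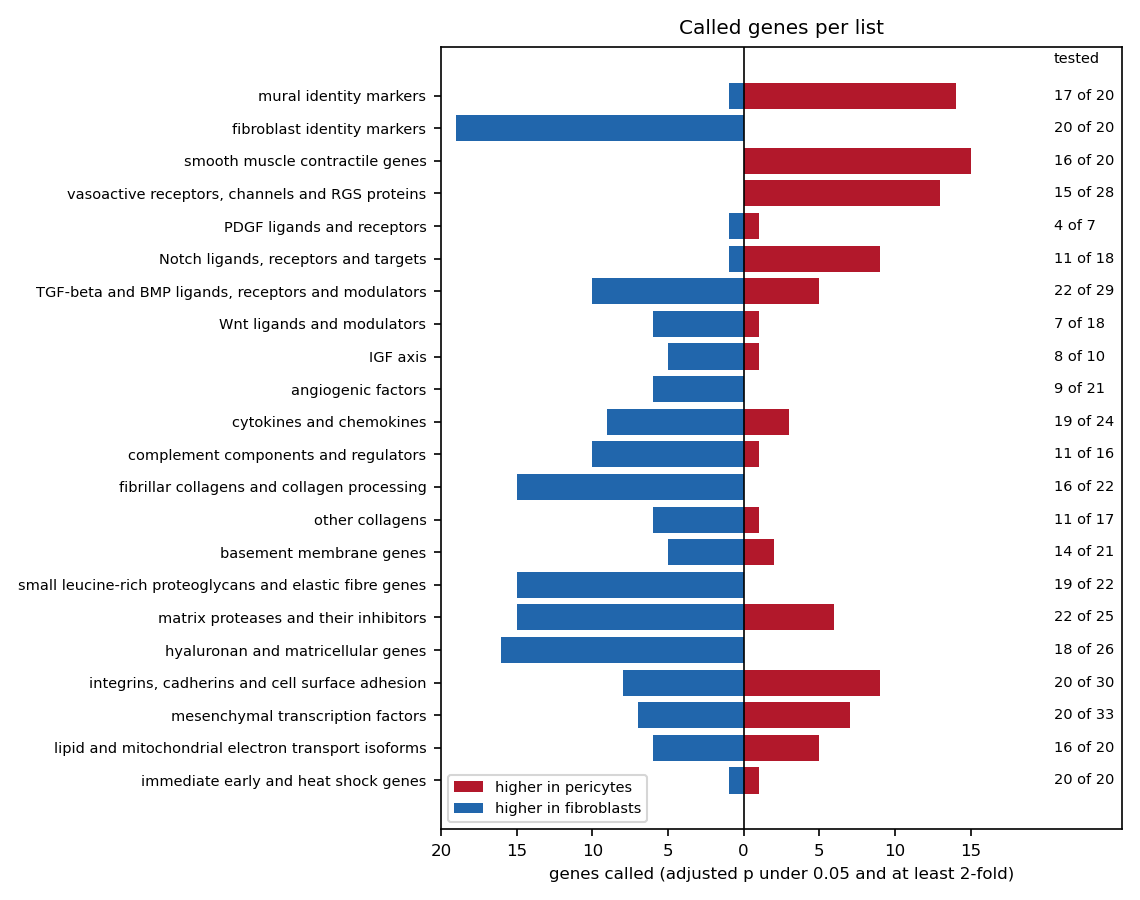
Number of genes (x axis) called higher in pericytes (right) or in fibroblasts (left) in each of 22 functional lists (y axis), with the members tested of all members at the right edge. Contractile and vasoactive lists lie wholly to the right, with 15 and 13 genes, and fibrillar collagens and proteoglycans wholly to the left, with 15 each.

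Secreted signals were found mainly on the fibroblast side. Wnt ligands and modulators were higher in fibroblasts for 6 of 7 tested of 18, with a median of -5.94, or -5.23 with undetected genes at their bound. The Wnt antagonist Sfrp4 had 3656 UMIs in fibroblasts and 0 in pericytes, at least 237-fold higher, and Sfrp2 differed by -6.42 ± 0.34. The receptor Fzd4 was the member higher in pericytes (2.26 ± 0.22) and differed by 0.25 ± 0.17 from vascular endothelial cells. Of 22 tested TGF-beta and BMP genes of 29, 10 were higher in fibroblasts and 5 in pericytes. Fstl1 and Fst, follistatin family members that bind activins or BMPs, differed by -3.27 ± 0.18 and -2.80 ± 0.25. Complement genes were higher in fibroblasts for 10 of 11 tested of 16, and C3, the central component, was at 0 to 32.0 against 385 to 1570 CPM (-7.53 ± 0.40). Angiogenic factors were higher in fibroblasts for 6 of 9 tested of 21 and in pericytes for 0.

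Within the IGF axis, 5 of 8 tested genes of 10 were higher in fibroblasts and Igfbp7 alone was higher in pericytes. Igfbp6 was at 0 to 105 CPM in pericytes and 1807 to 4050 in fibroblasts (-7.44 ± 0.38). Igfbp7, a vascular matrix protein, was at 4953 to 8143 CPM in pericytes, 1409 to 3521 in fibroblasts and 3988 to 5371 in vascular endothelial cells (1.59 ± 0.13 against fibroblasts). Igfbp5 differed by -2.01 ± 0.27 from fibroblasts, but by -0.92 (adjusted p = 0.029) in pericytes without endothelial UMIs, under the 2-fold minimum. Among 19 tested cytokine and chemokine genes of 24, 9 were higher in fibroblasts and 3 in pericytes. Ccl2, which attracts monocytes, was at 50.5 to 926 CPM in pericytes against 1059 to 7473 in fibroblasts (-3.22 ± 0.47). Il6 was higher in pericytes, at 463 to 1113 against 149 to 494 CPM (1.13 ± 0.27, adjusted p = 0.0026). Cxcl12, which retains leukocytes and progenitors, ranged from 50.5 to 1351 CPM in pericytes and 253 to 656 in fibroblasts and was not called (0.27 ± 0.36, adjusted p = 0.55). Il33, an alarmin, had 989 UMIs in fibroblasts and 0 in pericytes, at least 64.2-fold higher.

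Adhesion genes split, with 9 of 20 tested of 30 higher in pericytes and 8 in fibroblasts. Itga7, a laminin-binding integrin of muscle, was at 25.5 to 68.9 CPM against 0 to 12.7 (4.93 ± 0.55), and Mcam, CD146, differed by 5.02 ± 0.48. Mcam was at 25.7 to 90.6 CPM in pericytes and 9.08 to 42.6 in vascular endothelial cells. Cd248, endosialin, was higher in fibroblasts (-4.80 ± 0.36). Mesenchymal transcription factor genes were also even, at 7 against 7 of 20 tested of 33. Those higher in fibroblasts included Prrx1 (-2.11 ± 0.27), Twist1 (-1.88 ± 0.34) and Osr1 (-5.54 ± 0.49), and those in pericytes Mef2c (2.44 ± 0.25) and Foxs1 (2.53 ± 0.37). Ebf1, an early B cell factor also used in stroma, was at 320 to 869 against 402 to 742 CPM and not called (-0.10 ± 0.15, adjusted p = 0.62). Of 16 tested lipid and electron transport genes of 20, 5 were higher in pericytes and 6 in fibroblasts, including Apod (-6.35 ± 0.35) and Hk2 (-5.03 ± 0.29), the hexokinase gene. Immediate early and heat shock genes were called for 2 of 20, Ier3 on the pericyte side (1.64 ± 0.19) and Mt2 on the fibroblast side (-2.20 ± 0.19). Ier3 was at -0.06 (adjusted p = 0.92) in pericytes without endothelial UMIs. Its level was 951 to 2156 CPM in all labelled pericytes and 933 to 3346 in vascular endothelial cells.

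In each direction 10 called genes, at 50 CPM or more on average in the higher type, were taken by the rank of the fitted fold. For genes with 0 to 3 UMIs in the lower type that fitted fold depends on the prior count, so the bounds and ratios below do not follow the rank, and Mfap4 (392-fold by summed counts, 70.2 to 15480) and Mmp3 are not among the 10. On the pericyte side they were Gm13861 (97 UMIs against 0, at least 166-fold), H2-M9, Pcp4l1, Gm13889, Lmod1, Pln, Rgs5, Rgs4, Gja4 and Des. Pln and Gm13861 reached the 50 CPM average only through the aged mice. In young pericytes they were at 6.03 to 18.3 and 17.0 to 45.7 CPM. H2-M9, a member of a family of close major histocompatibility copies among which reads can be misassigned, had 361 UMIs in pericytes and 2 in fibroblasts (927-fold, 255 to 7681). On the fibroblast side were Sfrp4, the myocilin gene Myoc (at least 168-fold), the lysophosphatidic acid receptor gene Lpar1 (at least 83.8-fold), Dpp4 (at least 77.4-fold), Il33, D630033O11Rik (at least 38.8-fold), the Wnt antagonist Sfrp1 (at least 37.6-fold), the adenosine receptor gene Adora2b (at least 32.8-fold), Akr1c18 and Cxcl13. Akr1c18, a progesterone-metabolising enzyme, had 2425 UMIs against 1 (472-fold, 84.7 to 18660), and the B cell chemokine gene Cxcl13 had 1253 against 1 (244-fold, 43.7 to 9648).

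Cell quality measures differed in part. Median UMIs per cell were 3716 to 5902 in pericytes and 3757 to 6038 in fibroblasts, a within-mouse difference of 367 ± 635 (SD, n = 7) that was positive in 4 mice (exact sign-flip p = 0.188). Genes per cell were higher in pericytes by 203 ± 164 in 7 of 7 mice, and the mitochondrial share was 3.31 to 4.51% against 1.92 to 2.37%, higher by 1.81 ± 0.375 in 7 of 7. Both had the smallest exact p that 128 sign flips can give, 0.0156, with a Benjamini-Hochberg value of 0.0234 over 3 measures. What part these play in the gene differences was not tested.

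In young mice pericytes made up 16.2% ± 12.1 (SD, n = 3) of pericytes and fibroblasts together. The aged mice had 47.2% ± 21.1 (SD, n = 4), and the exact permutation p was 0.114. Among all cells of the mouse the order was reversed, at 4.12 and 1.62% (exact permutation p = 0.114). Age and the recovery of each cell type from the tissue cannot be told apart in these shares.

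Whether the pericyte to fibroblast difference itself changed with age was tested as an interaction, since age was not used to choose the cells. At an adjusted p under 0.05 and at least 1.5-fold, 23 of 3985 genes (0.577%) had a higher log2 ratio of pericytes over fibroblasts in aged mice and 12 (0.301%) a lower one. Of these 35 genes, 31 had within-mouse differences that did not overlap between ages, as did 520 of all tested genes (13.0%). The count rested on few mice. It was 6 and 3 without Young B, 7 and 3 without Aged A, 10 and 5 without Young A, and 16 and 5 without Aged B.

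Of the 16 contractile genes tested, 2 (Myl9 and Tpm2) were called with a higher ratio in aged mice. Myl9 had differences of 3.04 to 3.79 in young and 4.35 to 6.93 in aged mice (2.25 ± 0.49, adjusted p = 0.041), and Tpm2 2.77 to 4.16 and 4.61 to 6.41 (2.24 ± 0.47, adjusted p = 0.038). With only the pericytes that had endothelial UMIs, neither was called (1.02, adjusted p = 0.56, and 0.58, adjusted p = 0.77), and the values with only those that had none, in the fit with 1 young mouse, were 1.59 (adjusted p = 0.79) and 0.15 (adjusted p = 1). Acta2 had 4.31 to 6.11 and 4.94 to 10.15 and was not called (2.28 ± 0.79, adjusted p = 0.23). Rgs5 was not called either, with the opposite sign (-2.10 ± 1.03, adjusted p = 0.4). The summed contractile level in pericytes was 6165 to 7326 CPM in young and 13030 to 29220 in aged mice, while in fibroblasts it was 1346 to 2092 and 1465 to 1684. In aged pericytes without endothelial UMIs the sum was 23150 to 53160 CPM, and in the aged pericytes with endothelial UMIs 4406 to 10650, with no overlap. Acta2 followed, at 5584 to 13080 and 538 to 2314 CPM. Rgs5 did not, at 0 to 845 and 494 to 889 CPM, and it was 0 in Aged C and 18.0 CPM in Aged A among cells without endothelial UMIs. Myh11 was at 572 to 1421 CPM in aged pericytes without and 62.6 to 238 in those with endothelial UMIs. Whether the pericyte label also held vascular smooth muscle cells was not tested. Pericytes with an Acta2 and no Rgs5 UMI were 8.14% ± 0.395 (SD, n = 3) of the young mice's pericytes. The share in aged mice was 36.1% ± 15.1 (SD, n = 4), with an exact permutation p of 0.0286, the smallest possible, and a Benjamini-Hochberg value of 0.0571.

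Rgs2, an RGS protein that damps vasoconstrictor signals, was at 11.3 to 22.9 CPM in young pericytes and 67.4 to 339 in aged ones, against 39.4 to 159 and 70.7 to 161 in fibroblasts (3.13 ± 0.51, adjusted p = 0.008). With only the pericytes that had endothelial UMIs the Rgs2 difference was 1.56 (adjusted p = 0.45). Plce1, a phospholipase C, was at 6.03 to 13.7 and 8.58 to 53.0 CPM in pericytes against 46.7 to 68.0 and 0 to 27.4 in fibroblasts (4.17 ± 0.86, adjusted p = 0.032). Hacd1, a fatty acid elongation enzyme of muscle, was at 8.50 to 13.6 and 11.3 to 67.4 CPM in pericytes, and in fibroblasts at 43.8 to 54.6 and 5.75 to 27.4 (3.54 ± 0.68, adjusted p = 0.019). For Plce1 and Hacd1 the young fibroblasts were thus above every aged fibroblast value.

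Of the 17 vascular endothelial markers tested, 2 (Cldn5 and Fabp4) were called with a higher ratio in aged mice. Cldn5, a tight junction protein, was at 416 to 530 CPM in young and 127 to 430 in aged pericytes, and at 43.9 to 90.6 and 0 to 9.14 in fibroblasts (4.48 ± 0.72, adjusted p = 0.008). Rbp7 was at 1300 to 2710 and 657 to 1561 CPM in pericytes against 28.9 to 256 and 0 to 1.72 in fibroblasts (5.08 ± 1.11, adjusted p = 0.042). Fabp4, a fatty acid binding protein, changed by 2.63 ± 0.41. It was at 11520 to 13760 CPM in young and 4995 to 8758 in aged pericytes, and at 908 to 1934 and 38.0 to 146 in fibroblasts. For Cldn5, Rbp7 and Fabp4 the levels in pericytes were not higher with age. Their fibroblast levels were lower. In fibroblasts Rbp7 was 0 in Aged B, C and D and Cldn5 was 0 in Aged B and C. The sizes of these fitted changes thus rest on few UMIs. Summed vascular endothelial markers in fibroblasts were 1200 to 2828 CPM in young and 177 to 388 in aged mice. They were also lower with age in pericytes (19270 to 22150 and 8162 to 13930) and vascular endothelial cells (44840 to 55150 and 19070 to 20560).

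Genes with a lower ratio in aged mice included fibroblast matrix genes, whose separation was thereby wider. Dcn had differences of -6.82 to -5.05 in young and -11.14 to -7.29 in aged mice (-3.18 ± 0.66, adjusted p = 0.032), with 102 to 389 and 5.30 to 60.0 CPM in pericytes. Col1a2 had -5.45 to -4.72 and -7.66 to -6.48 (-1.97 ± 0.43, adjusted p = 0.044), with 59.5 to 102 and 8.58 to 16.85 CPM in pericytes. For Dcn and Col1a2 the aged pericyte levels rest on few UMIs, and so do the sizes of these changes. A collagen or Pdgfra UMI was found in 47.4% ± 11.5 of young and 16.5% ± 6.05 of aged pericytes, and in 15.8% ± 6.01 and 1.53% ± 0.956 of vascular endothelial cells (SD, n = 3 and 4; exact permutation p = 0.0286 for each, the smallest possible, Benjamini-Hochberg 0.0571). Mnda, an interferon-inducible nuclear gene of a family with close copies, changed by -3.31 ± 0.73 and Pianp by -5.35 ± 1.01. Mnda was at 9.15 to 39.2 CPM in young and 0 to 8.58 in aged pericytes, against 139 to 240 and 167 to 790 in fibroblasts. Pianp was at 4.57 to 17.0 and 17.0 to 53.0 CPM in pericytes, against 0 to 0.404 and 50.6 to 104 in fibroblasts. Its lower ratio thus came with higher fibroblast levels and not with lower pericyte levels. Pianp was 0 in fibroblasts of Young A and B, so the size of its fitted change rests on few UMIs. Vcam1, a leukocyte adhesion receptor, was at 96.0 to 113 CPM in young and 10.6 to 42.1 in aged pericytes, against 33.3 to 47.1 and 64.0 to 174 in fibroblasts (-3.34 ± 0.48, adjusted p = 0.0051), so the order of the types turned. H2-Q6, also of a family of close copies, changed by -2.37 ± 0.39. It was at 130 to 181 CPM in young and 79.5 to 345 in aged pericytes, against 18.0 to 25.1 and 64.0 to 305 in fibroblasts. With only the pericytes that had endothelial UMIs, Col1a2 (-2.70, adjusted p = 0.14) and Mnda (-2.64, adjusted p = 0.2) were not called.

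**Figure D5:**
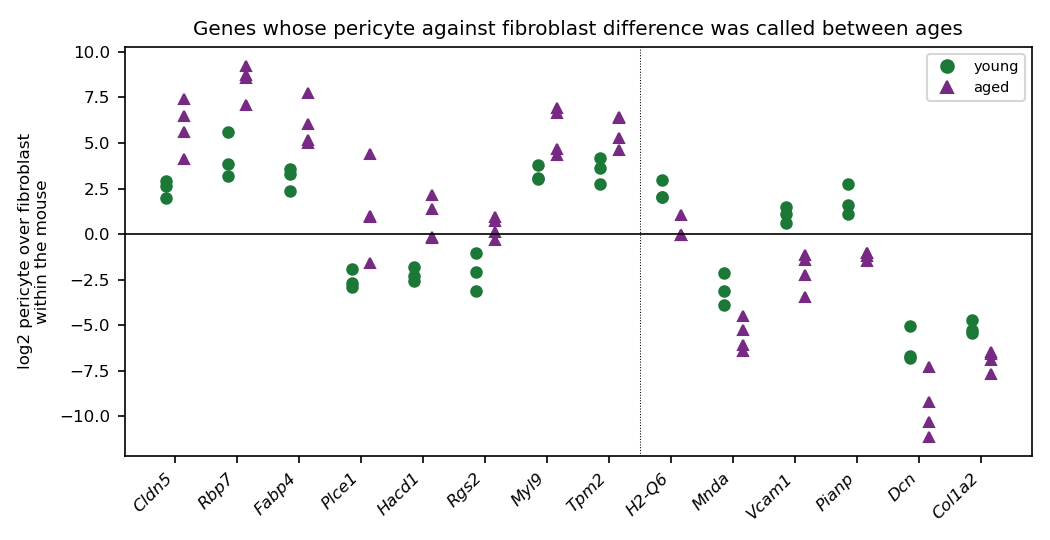
Log2 of pericyte over fibroblast level within each mouse (y axis) for 14 genes called between ages (x axis), 1 point per mouse, circles for 3 young and triangles for 4 aged mice. Genes left of the dotted line have higher values in aged mice and those right of it lower values, without overlap.

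With pericytes that carried endothelial UMIs alone, 12 of 3805 genes had a higher and 10 a lower ratio in aged mice. There 33 of the 35 genes could be tested, 14 were called and all 33 kept their sign. With pericytes without endothelial UMIs, 2502 genes were tested and edgeR called 0 in either direction, with 88 higher and 54 lower at an unadjusted p under 0.05; only 1 young mouse entered this fit. The parts of endothelial and collagen RNA in the age differences were not tested, and age cannot be told apart from differences in library preparation between the groups.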

How the data were processed

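Mammary glands were dissociated and single cells were captured per mouse with the 10x Chromium 3′ version 2 chemistry. Per the labels and the study's methods, the authors aligned reads to mm10 with Cell Ranger 2.0, filtered cells and genes, clustered the cells and named cell types. The deposited values are raw UMI counts per gene and cell (27998 genes, 13684 cells), not normalised, with the authors' cell type and mouse for each cell. The authors also deposited the mitochondrial share of UMIs as a fraction and cell-cycle scores computed with Seurat per cell; the scores were not used, and the mitochondrial share was recomputed from the counts over 13 genes. The mouse of each cell came from this annotation and its age from the sample labels.

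Counts were summed per mouse and type (smallest sum 78978 UMIs). Genes passing filterByExpr were fitted in edgeR 4.0.16 (R 4.3.3) with TMM factors (0.897 to 1.18), the mouse as a block and the quasi-likelihood test, and p-values were adjusted by Benjamini-Hochberg over all tested genes. The age interaction used the same fit. Every mouse gave both types, so the mouse pairs the sums. Genes with 0 UMIs in a type have a lower bound against a floor of 3 counts over the group, and genes with 1 to 3 UMIs the ratio of summed counts with an exact 95% counting interval, in place of a fitted value. This rule used the UMIs of all mice and was not applied within an age group. Log2 values within a mouse used a prior count of 2. Shares and cell quality were tested with two-sided exact permutations over mice, and doublets were scored with Scrublet in scanpy 1.11.5 at an expected rate of 0.06 and kept. Cells of 1 mouse are not replicates, the animal is. UMI totals set the precision, and intervals cover counting error only.

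Named genes were the study's markers, up to 4 called genes of largest fold with the same direction in every mouse from each of 22 functional lists, members needed for their role, the 10 of largest fitted fold in each direction at 50 CPM or more, and the 5 largest interaction genes in each direction without overlap between ages; the other age genes named are list members. The cells, lists and rules were chosen with earlier results of these data known. Of the list symbols 2, Leprel4 and Vegfd, were not in the matrix. Gene positions are from GENCODE vM21. In counts simulated from these sums, the type test on 3872 genes recovered 96% of 3-fold and 100% of 6-fold changes with 5 false calls, and the age test on 3983 genes 35% and 82% with 3 false calls. Alternatives were DESeq2 1.42.0, RLE factors, no filter, other gene, cell and mouse sets, thinned sums, other fold minimums and other blocks. The fit on pericytes with endothelial UMIs alone, the fit against vascular endothelial cells and the low-count ratios were chosen after seeing the data. No column of per-sample values was left unused.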

Additional observations from a re-analysis of the deposited data

Results flagged for a closer look

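The age interaction was past its threshold for 18 genes described by name or held in a list. The log2 ratio of pericytes over fibroblasts was higher in aged than in young mice for Rbp7 (5.08), Cd74 (4.95), Cldn5 (4.48), Plce1 (4.17), Hacd1 (3.54), Rgs2 (3.13), Aspn (2.74), Fabp4 (2.63), Myl9 (2.25) and Tpm2 (2.24). It was lower for Pianp (-5.35), Vcam1 (-3.34), Mnda (-3.31), Dcn (-3.18), H2-Q6 (-2.37), Col1a2 (-1.97), Ltbp4 (-1.8) and Gja1 (-1.57). The sizes for Rbp7, Cldn5 and Pianp rest on few UMIs in fibroblasts of an age group. Those for Dcn and Col1a2 rest on few UMIs in aged pericytes. Cd74, a leukocyte marker, had overlapping within-mouse values of -1.08 to 1.03 in young and 0.94 to 5.33 in aged mice. It was at 59.4 to 352 CPM in young and 26.5 to 1423 in aged pericytes, at 56.4 to 326 and 11.5 to 27.6 in fibroblasts, and at 188 to 576 and 617 to 8697 in vascular endothelial cells.

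In 8 of 87 genes examined, 1 of the 4 aged mice stood apart from the others in its log2 difference of pericytes over fibroblasts. The gap to its neighbour as a share of the whole range exceeded Dixon's limit, which chance exceeds in about 1 of 20 groups. Aged C stood apart for Des (gap share 0.896, value 4.49), Epas1 (0.919, 7.05), Hk2 (0.878, -7.99) and Osr1 (0.848, -3.02). Aged A stood apart for Ackr3 (0.838, -5.62), Aged B for Dpt (0.935, -3.62), and Aged D for Gja4 (0.854, 3.43) and H2-Q6 (0.970, 1.07). Aged C and D held 15 and 17 fibroblasts, the smallest numbers of the 7 mice.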

How the results depend on the processing

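The mice, not the replicate letters of the labels, pair the sums. Same-letter young and aged mice had correlations of -0.29 to 0.07 over 6 pairs and other pairs -0.17 to 0.23 over 18. So few pairs cannot decide whether mice of the same letter shared a step of processing. With a replicate block of the letters the age counts were 45 higher and 28 lower, against 23 and 12. That fit tested 4879 genes against 3985, and Aged D, the only mouse of its letter, had a term of its own there and so added nothing to the age difference. With no replicate block of the mouse, the type counts were 302 and 358, against 680 higher in pericytes and 679 higher in fibroblasts, from 2408 genes tested against 3985.

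The type counts, pericytes then fibroblasts, were 1349 and 1694 with no filter, 314 and 366 in pericytes without endothelial UMIs, 1048 and 1076 with at least 20 cells of each type, 335 and 363 with thinned sums, 1267 and 1227 in young mice, and 393 and 436 in aged mice. Fewer or more genes entered these fits. At the lower fold minimum 1149 were higher in fibroblasts. DESeq2 gave 735 and 626, RLE factors 744 and 623. Leaving out each mouse gave 587 to 832 and 576 to 850. The age counts, higher then lower, were 44 and 39 with no filter, 0 and 0 without endothelial UMIs, 12 and 3 with thinned sums, and 12 higher with endothelial UMIs alone. There were 20 lower with RLE factors and 20 lower with at least 20 cells. Leaving out each mouse gave 6 to 30 and 3 to 14. The cause was not tested.

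Named genes whose type difference reversed were H2-Q6 (-0.33), Ier3 (-0.06) and Rgs2 (1.45) in pericytes without endothelial UMIs, Pianp (0.65 with DESeq2, -0.54 to 0.28 leaving out each mouse), and Vcam1 (0.07 with RLE factors, 0.27 with endothelial UMIs alone, -0.53 to 0.43 leaving out each mouse). Age differences that reversed were Gja1 (2.63) and H2-Q6 (5.02) without endothelial UMIs and Tpm2 (-0.12) with thinned sums. In the fit without endothelial UMIs the young side was 3 pericytes of Young B, too few to decide a reversal. The pericyte share differed between ages by 24.6 to 41.1 points without each mouse, and by -2.51 among all cells. The differences in UMIs, genes and mitochondrial share ranged over 236 to 528, 164 to 234 and 1.73 to 1.89. With each mouse left out, 58 age differences of named genes lost their call and 61 kept it, and 1 type difference lost its call, while 547 stayed on their side of the threshold with the same sign. Small aged sums limit the detection of low genes.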

Other observations

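Among the labelled pericytes, Acta2 and Rgs5 UMIs occurred together in 50.1%, Acta2 alone in 17.5%, Rgs5 alone in 13.5% and neither in 18.9%. In aged pericytes without endothelial UMIs, Rgs4 was at 468 to 1030 CPM and Des at 574 to 1279 CPM, against 62.6 to 238 and 164 to 269 in the aged pericytes with endothelial UMIs. Notch3 was at 142 to 198 against 37.6 to 96.8 CPM. Clu had the other order, at 36.0 to 300 against 188 to 538 CPM, where the ranges overlapped, and Vcam1 had no UMI in cells without endothelial UMIs. These cells were split by the genes measured beside them, so the values carry no test.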
